A study of Homo sapiens with 6 samples.

Results

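Interferon-stimulated genes are the genes that cells switch on when interferon reaches their surface. A list of 38 of them was followed in human mesenchymal stem cells with and without added SHC4. The 38 genes are well-known members of this class, listed by symbol, and all 38 were found among the 28181 genes of the files, with DDX58 as the gene now named RIGI. RNA was sequenced from 3 libraries of UE7T-9 SHC4 and 3 libraries of UE7T-9 Cont. UE7T-9 is a bone marrow mesenchymal stem cell line, and both groups carry the hTERT and human papillomavirus E7 genes that immortalize it. UE7T-9 SHC4 was infected with a lentivirus in which a CMV promoter drives the coding region of SHC4, an adaptor protein of receptor tyrosine kinases, and was selected with puromycin. The study's methods describe UE7T-9 Cont as infected with the same vector carrying GFP, whereas the labels name the controls Nontarget with genotype WT. The labels number the libraries as biological replicates, but whether they came from separate infections, clones or cultures is not stated, so the p-values measure the spread between these libraries. Below, a library is named by its group and replicate number, such as Cont 1 or SHC4 1.

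Type I interferons bind the receptor chains IFNAR1 and IFNAR2, and the kinases JAK1 and TYK2 then act on STAT2. With IRF9 it forms part of a factor that binds the interferon-stimulated response element (ISRE) in promoters. The induced genes block viruses at several steps: they sense viral RNA, degrade it, tag proteins with the ubiquitin-like ISG15 or keep viruses out of the membrane. Mesenchymal stem cells are known to keep a basal level of several of these genes without infection. In bulk RNA, fewer cells that express a gene and less RNA per cell cannot be told apart.

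Promoters of the listed genes were searched on both strands for the ISRE core, GAAA followed by any 2 bases and GAAA again, since this is the element that the genes are known to share. The window ran from 250 bases before to 50 bases after each start in RefSeq on GRCh38.p14, and 30 of the 38 genes had an entry in the promoter table. Of these 30 genes, 22 (73.3%) held the core at least 1 time and 14 held it at least 2 times in 1 promoter, against 4.38% of the 27305 genes of the table with at least 1 match. Overlapping matches were counted separately. The entries of RSAD2, CMPK2 and MX1 include several starts. A match was found at 1 of the starts of RSAD2, at none of CMPK2 and at 2 of MX1. No match was found for IFI35, OAS1, XAF1, HERC6, DDX58, IRF9, CMPK2 and SAMD9L. The stretch of 170 bases before the start is printed for 9 genes with a single entry, to show the element in members of different roles. All 9 were taken from the genes with a match. Capitals mark the matches, which read TTTC, any 2 bases and TTTC where they lie on the opposite strand.
ISG15 (chr1:1013327-1013496, plus strand): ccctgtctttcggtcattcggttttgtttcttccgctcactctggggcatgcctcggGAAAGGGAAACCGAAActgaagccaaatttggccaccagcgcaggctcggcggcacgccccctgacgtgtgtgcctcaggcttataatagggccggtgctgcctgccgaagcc
IFIT1 (chr10:89392453-89392622, plus strand): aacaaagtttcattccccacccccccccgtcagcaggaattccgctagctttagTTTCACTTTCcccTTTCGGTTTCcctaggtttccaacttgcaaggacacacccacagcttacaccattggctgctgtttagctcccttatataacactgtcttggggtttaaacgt
IFITM1 (chr11:313870-314039, plus strand): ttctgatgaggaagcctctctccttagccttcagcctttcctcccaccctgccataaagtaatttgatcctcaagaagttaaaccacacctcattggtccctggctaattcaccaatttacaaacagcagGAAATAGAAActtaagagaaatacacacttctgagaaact
IFI6 (chr1:27672193-27672362, minus strand): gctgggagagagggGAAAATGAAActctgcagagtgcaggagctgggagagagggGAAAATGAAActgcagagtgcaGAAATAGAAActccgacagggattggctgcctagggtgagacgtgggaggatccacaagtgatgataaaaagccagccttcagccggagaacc
IFI44L (chr1:78620278-78620447, plus strand): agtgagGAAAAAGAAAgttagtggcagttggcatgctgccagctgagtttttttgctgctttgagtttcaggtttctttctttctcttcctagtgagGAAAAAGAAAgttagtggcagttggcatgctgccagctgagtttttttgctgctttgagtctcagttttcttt
OAS3 (chr12:112938304-112938473, plus strand): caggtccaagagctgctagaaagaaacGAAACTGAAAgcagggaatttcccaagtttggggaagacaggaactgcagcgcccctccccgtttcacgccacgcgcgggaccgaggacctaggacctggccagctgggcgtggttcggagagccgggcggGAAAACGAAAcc
HERC5 (chr4:88456949-88457118, plus strand): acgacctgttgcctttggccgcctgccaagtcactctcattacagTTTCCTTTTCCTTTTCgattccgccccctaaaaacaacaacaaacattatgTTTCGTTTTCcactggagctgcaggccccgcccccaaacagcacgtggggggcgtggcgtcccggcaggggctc
DDX60 (chr4:168318753-168318922, minus strand): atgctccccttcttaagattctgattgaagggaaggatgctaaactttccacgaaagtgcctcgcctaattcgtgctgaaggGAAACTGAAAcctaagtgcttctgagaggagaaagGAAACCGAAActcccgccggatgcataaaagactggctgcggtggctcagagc
EPSTI1 (chr13:42992242-42992411, minus strand): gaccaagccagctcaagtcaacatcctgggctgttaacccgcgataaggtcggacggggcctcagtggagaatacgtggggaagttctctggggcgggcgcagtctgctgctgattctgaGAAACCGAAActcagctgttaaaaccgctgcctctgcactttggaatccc
IFI6 and HERC5 each held 3 matches in this stretch, and the matches of ISG15 overlap each other. In EPSTI1 and IFITM1 the stretch held 1 match, 50 and 40 bases before the start. These matches are a description of the sequence, and binding was not measured.

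The recovered depth was 18144993 to 27721397 reads per library. The level of SHC4 was 56.5, 157 and 129.9 normalized counts in the controls and 134870, 119166 and 155006 in UE7T-9 SHC4, so each library matched its label. A normalized count is the number of reads of a gene divided by the size factor of its library. The 6 mesenchymal stem cell markers fixed for the check (NT5E, THY1, ENG, PDGFRB, COL1A1 and VIM) were above 0 in all libraries. The leukocyte marker CD3E, the plasmacytoid dendritic cell markers CLEC4C and LILRA4 and the progenitor marker SPN were not listed in the files. PTPRC did not exceed 6.82. The other plasmacytoid dendritic cell marker, IL3RA, was at 27.3 to 39.3 in the controls and 33.3 to 36.1 in UE7T-9 SHC4. CD34, the other progenitor marker, was at 45.3 to 49.4 against 39.6 to 52.7. The summed endothelial markers (PECAM1, VWF and CDH5) were at 47.2 to 73.1 against 48.3 to 95.7. The summed level of the 6 leukocyte markers listed ran from 168 to 371 in the controls and 214 to 272 in UE7T-9 SHC4, most of it CD14 and HLA-DRA. HLA-DRA, itself inducible by interferon gamma, was 262, 89.5 and 72.8 in Cont 1, 2 and 3 and 151, 189 and 161 in UE7T-9 SHC4. The summed epithelial markers were at 55.3 to 127 against 8.32 to 39.5, and the summed mesenchymal markers at 119342 to 376270 against 185764 to 345971. Most of the epithelial sum in the controls was KRT18, at 41.9, 37.7 and 112 against 21.1, 3.33 and 3.49 in UE7T-9 SHC4. Most of the mesenchymal sum was COL1A1 in every library. Within it, PDGFRB was 4122, 1487 and 1678 in the controls and 6635, 5281 and 5178 in UE7T-9 SHC4. Cont 1 stood apart from the other controls in most of the interferon-stimulated genes described below, and the results are given with and without it. Among the markers it stood apart in HLA-DRA and PDGFRB, whereas in KRT18 it was close to Cont 2.

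The interferon-stimulated genes differed most within the control group. They were high in Cont 2 and Cont 3 and low in Cont 1 and in the 3 UE7T-9 SHC4 libraries. Cont 2 and Cont 3 were the 2 highest of the 6 libraries in 35 of the 38 genes, against 16.7% of the 23040 genes tested. Cont 1 was the lowest control in 37 of the 38 genes (38.8% of the genes tested), with IFITM2 as the exception. It lay below all 3 UE7T-9 SHC4 libraries in 21 of the 38 genes (26.2% of the genes tested), within their range in 17 (45%) and above them in none (28.8%).

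The 38 genes took 0.188%, 0.856% and 1.19% of the reads in Cont 1, Cont 2 and Cont 3, and 0.201%, 0.257% and 0.332% in SHC4 1, SHC4 2 and SHC4 3. Cont 1 thus had the smallest share of the 6 libraries and Cont 3 the largest. On the log2 scale, the median distance of the 38 genes from their own 6-library mean was -1.06, 1.24 and 1.66 in the controls and -1.01, -0.55 and -0.18 in UE7T-9 SHC4. Over all genes tested the same medians lay between -0.00198 and 0.0193.

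**Figure D1:**
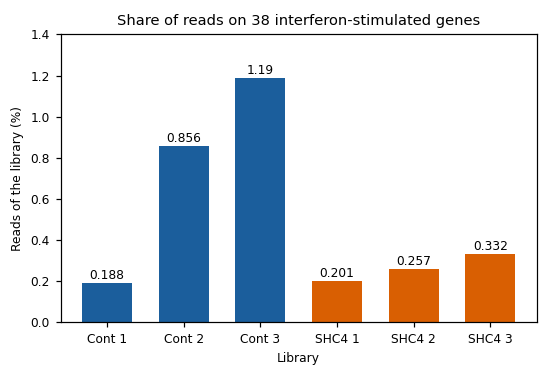
Percent of the recovered reads of each library (vertical axis) that fell on the 38 interferon-stimulated genes, with 1 bar per library, controls in blue and UE7T-9 SHC4 in orange. Cont 2 and Cont 3 reach 0.856% and 1.19%, and the other 4 libraries lie between 0.188% and 0.332%.

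The spread between replicates was therefore far larger in the controls than for most genes. The highest control exceeded the lowest by a median of 6.24 times over the 38 genes, against 1.3 times over the 12678 genes whose mean reached 50 normalized counts. The ratio was above 4 in 25 of the 38 genes and in 2.0% of those 12678 genes. In UE7T-9 SHC4 the median ratio was 1.76 times for the 38 genes and 1.24 times for the 12678 genes. SHC4 3 was the highest library of its group in 35 of the 38 genes (32% of the genes tested) and SHC4 1 the lowest in 30 (35.8%). The controls also differed in genes outside the list. COL1A1 was 315042, 87857 and 67813 in Cont 1, 2 and 3, THY1 was 7742, 2939.6 and 2286, and KRT18 was 41.9, 37.7 and 112. The mesenchymal marker NT5E went the other way from COL1A1 and THY1, at 13089, 22364 and 20649. VIM differed less, at 28226, 22045 and 22098, and ENG and PDGFRB were also highest in Cont 1. Depth was 23922933, 18144993 and 20494310 reads in the same libraries. The part of these differences in the levels of the interferon-stimulated genes was not tested.

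**Figure D2:**
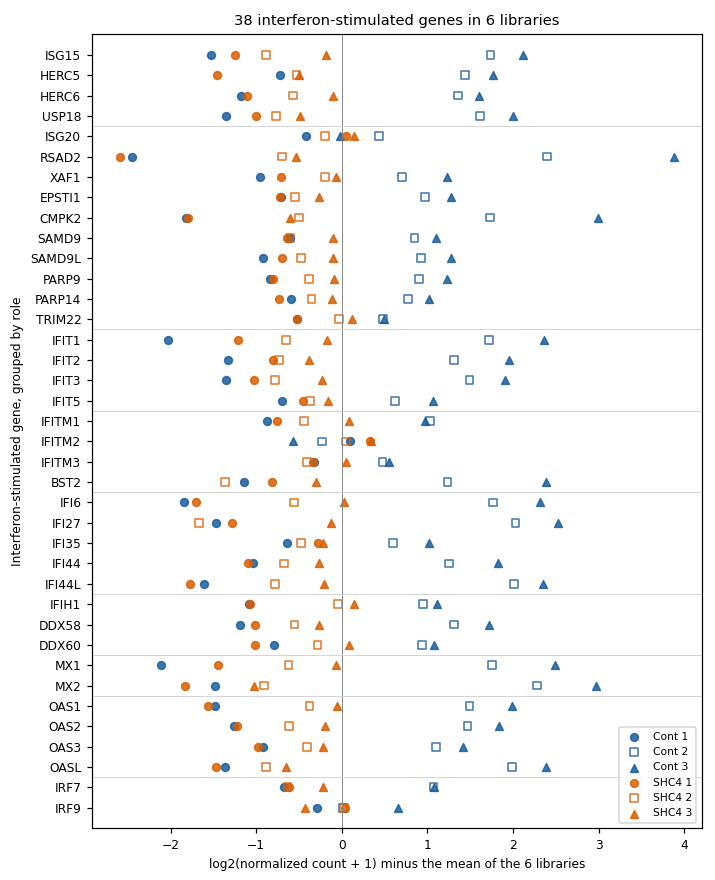
Each row is 1 of the 38 interferon-stimulated genes, grouped by role, and each point is 1 library (controls in blue, UE7T-9 SHC4 in orange). The horizontal axis is the distance of log2(normalized count + 1) from the mean of the 6 libraries. In 35 rows Cont 2 and Cont 3 lie to the right of the other 4 points, the exceptions being ISG20, IFITM2 and IRF9.

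UE7T-9 SHC4 was compared with UE7T-9 Cont with limma on log2(normalized count + 1). The log2 fold change is that of UE7T-9 SHC4 minus UE7T-9 Cont, given with its standard error (SE). Genes were called if the adjusted p was below 0.05 and the log2 fold change exceeded 1 in either direction. With all 6 libraries, 37 of the 38 genes had a log2 fold change below 0 (50.3% of all genes) and 22 of 38 below -1 (6.3%), but limma called none of them lower (0 of 38, against 0.00868% of all genes) and none higher (0.0521%). Their median log2 fold change was -1.21, against -0.00395 over all genes tested. The adjusted p ran from 0.246 (HERC5) to 0.9996 (ISG20), and 8 genes were lower and 1 higher at an unadjusted p below 0.05 (6.96% and 7.47% of all genes). With the reads recovered from the files, the quasi-likelihood test of edgeR called 0 of the 38 (0.00631% of all genes lower and 0.0568% higher). In edgeR 23 of the 38 had an unadjusted p below 0.05, 22 of them lower. The share over all genes was not counted there, so this count cannot be read as a result about the 38 genes. On the same reads DESeq2 called MX2 and EPSTI1 lower (1.15% of all genes) and none higher (1.05%). In none of the 38 genes did the 3 libraries of UE7T-9 SHC4 lie beyond the 3 controls, against 10.2% of all genes tested below and 9.13% above.

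Without Cont 1 the same test gave another picture. Limma called 33 of the 38 genes lower in the 3 UE7T-9 SHC4 libraries than in Cont 2 and Cont 3 (1.47% of all genes) and none higher (1.59%). The median log2 fold change of the 38 genes was then -2.10, against -0.0121 over all genes. The 5 genes not called were ISG20, IFITM2, IFITM3, IRF9 and TRIM22. Of the 38 genes, 35 had all 3 UE7T-9 SHC4 libraries below both remaining controls (21.5% of all genes) and 1, IFITM2, above them (18.6%). With any of the other 5 libraries left out instead, limma called 0 of the 38. Whether the test called these genes thus depended on Cont 1, and the reason for its position was not tested. Cont 1 was set apart for its low level in these same genes. The calls and p-values without it, here and below, follow from that choice and serve as description only. The 35 genes lower without overlap are those in which Cont 2 and Cont 3 were the 2 highest libraries.

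**Figure D3:**
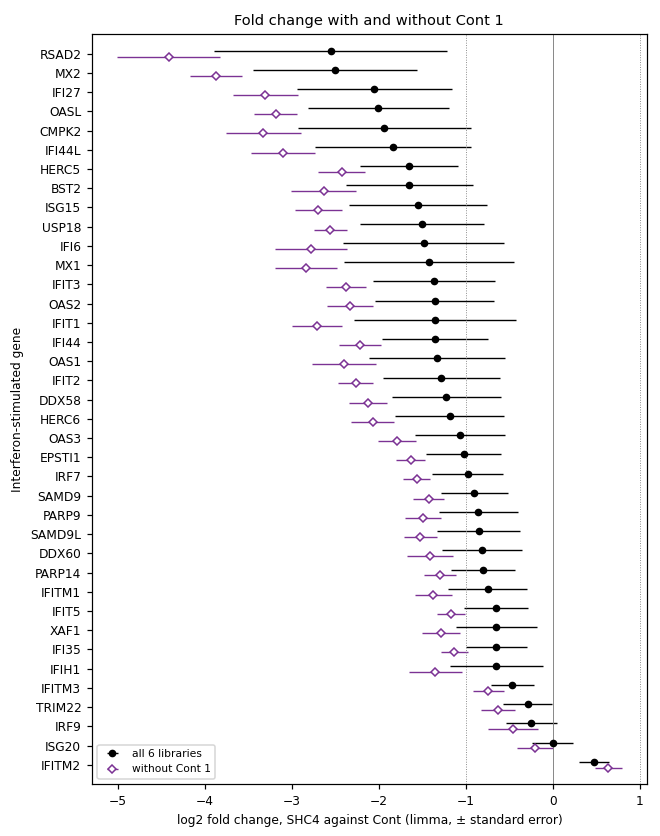
Log2 fold change of UE7T-9 SHC4 against UE7T-9 Cont (horizontal axis, limma) for each of the 38 genes, with 1 standard error on each side. Black points use all 6 libraries and open diamonds leave out Cont 1, and dotted lines mark -1 and 1. The diamonds lie to the left of the points in 37 genes and their bars are shorter in all 38.

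Within the ISG15 system, ISG15 is the ubiquitin-like protein that is joined to target proteins, HERC5 the ligase that joins it, and USP18 the protease that removes it and also damps signalling at the interferon receptor. Gene positions here and below are those of GENCODE 29 on GRCh38. The normalized count of ISG15 (chr1:1001138-1014540, plus strand) was 960.2, 9222 and 11983 in Cont 1, 2 and 3 and 1163, 1498 and 2436 in SHC4 1, 2 and 3. Cont 2 and Cont 3 were 9.6 and 12.5 times Cont 1, while the UE7T-9 SHC4 libraries lay between Cont 1 and Cont 2. The log2 fold change of ISG15 was -1.55 (SE 0.80, limma adjusted p = 0.414) with all libraries and -2.70 (SE 0.27, limma adjusted p = 0.00167) without Cont 1. HERC5 ranged from 204 to 1906 over the 6 libraries, with a log2 fold change of -1.66 (SE 0.56, limma adjusted p = 0.246), the smallest adjusted p of the 38 genes. Its relative HERC6 ranged from 599 to 4133 and USP18 from 153 to 1570, and both had Cont 1 below all UE7T-9 SHC4 libraries. USP18 shares 23.4% of its 50-base stretches with other genes, USP41 above all, so reads could be exchanged between them.

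The IFIT proteins bind viral RNA with foreign ends, and their genes lie side by side on chromosome 10 (IFIT2 at chr10:89283694-89309276, IFIT3 at chr10:89327894-89340971, IFIT1 at chr10:89392546-89406486 and IFIT5 at chr10:89414586-89421001, plus strand). The level of IFIT1 was 662, 8920.1 and 13900 in the controls and 1169.8, 1724 and 2415 in UE7T-9 SHC4. Cont 3 was 21 times Cont 1, and Cont 1 was below every UE7T-9 SHC4 library. IFIT1 had a log2 fold change of -1.36 (SE 0.93, limma adjusted p = 0.54), and of -2.71 (SE 0.29, limma adjusted p = 0.00212) without Cont 1. For IFIT3, which stabilizes IFIT1, the values were 1499, 10742 and 14363 in the controls and 1872, 2219 and 3251 in UE7T-9 SHC4, at a log2 fold change of -1.37 (SE 0.70, limma adjusted p = 0.414). IFIT2 ran from 489 to 4762 and IFIT5, the family member least apart between libraries, from 908 to 3077. All 4 genes had Cont 1 as the lowest library of the 6, and limma called all 4 lower without it.

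The IFITM proteins sit in cell membranes and stop viruses from fusing, and BST2 (tetherin) holds budding virus particles at the surface. IFITM3 (chr11:319669-327537, minus strand), the gene of the list with the highest median level per length, was at 8129, 14157 and 14884 in Cont 1, 2 and 3 and 8069.7, 7655 and 10509.5 in SHC4 1, 2 and 3. Its highest control was only 1.83 times Cont 1, and the log2 fold change was -0.47 (SE 0.25, limma adjusted p = 0.424). Without Cont 1 its adjusted p was 0.0438 at a log2 fold change of -0.75, short of the threshold of -1. IFITM1 ranged from 1163 to 4356 and BST2 from 64.9 to 890.3, with Cont 3 at 11.7 times Cont 1 for BST2. IFITM2 had another order of the libraries, at 3489, 2790.1 and 2211 in the controls and 4108, 3389 and 4139.8 in UE7T-9 SHC4. Cont 1 was its highest control, and its log2 fold change was 0.47 (SE 0.18, limma adjusted p = 0.281), or 0.64 (SE 0.15, limma adjusted p = 0.0458) without Cont 1. IFITM1, IFITM2 and IFITM3 share 32%, 34.3% and 35.2% of their 50-base stretches with other genes, largely each other and, for IFITM3, AC136475.5, so the 3 levels are uncertain.

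IFI6, a mitochondrial and endoplasmic reticulum protein that limits viral replication, had the highest mean normalized count of the 38 genes. IFI6 (chr1:27666061-27672218, minus strand) was at 1791, 21957 and 31989 in Cont 1, 2 and 3 and 1984, 4375 and 6585 in SHC4 1, 2 and 3. Its 6 libraries thus covered 17.9 times within the controls and 3.32 times within UE7T-9 SHC4. The log2 fold change was -1.49 (SE 0.93, limma adjusted p = 0.5), and -2.78 (SE 0.41, limma adjusted p = 0.00759) without Cont 1. IFI44L and its neighbour IFI44 lie together on chromosome 1 (IFI44L at chr1:78619922-78646145, plus strand), and IFI44L was 752, 9265 and 11733 in the controls and 669.7, 1336 and 1990.1 in UE7T-9 SHC4. SHC4 1 was its lowest library and Cont 1 the next. IFI44L had a log2 fold change of -1.84 (SE 0.89, limma adjusted p = 0.391), and -3.10 (SE 0.36, limma adjusted p = 0.00297) without Cont 1. IFI27 ranged from 321 to 5919, IFI44 from 633 to 4798 and IFI35 from 859.8 to 2726. Of these 5 genes, IFI27 had the lowest log2 fold change, -2.06 (SE 0.89, limma adjusted p = 0.334).

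MX1 and MX2 are dynamin-like GTPases that trap viral nucleocapsids, and their genes are neighbours on chromosome 21 (MX2 at chr21:41361943-41409390 and MX1 at chr21:41420304-41459214, plus strand). MX1 was 508, 7454 and 12412 in the controls and 809, 1429 and 2101 in UE7T-9 SHC4. MX2, a far less abundant transcript per length, was 74.1, 1018 and 1639 in the controls and 58, 111 and 102 in UE7T-9 SHC4. The 2 genes differed in where Cont 1 stood, below all UE7T-9 SHC4 libraries for MX1 and among them for MX2. The log2 fold change of MX1 was -1.42 (SE 0.98, limma adjusted p = 0.543), and -2.84 (SE 0.35, limma adjusted p = 0.00368) without Cont 1. That of MX2 was -2.51 (SE 0.94, limma adjusted p = 0.281), whereas DESeq2 gave -3.33 (SE 1.06, DESeq2 adjusted p = 0.0448) and edgeR an adjusted p of 0.182. Without Cont 1, limma gave -3.88 (SE 0.30, limma adjusted p = 0.000652) for MX2.

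The OAS enzymes make the short adenylate chains that activate RNase L, and OAS1, OAS3 and OAS2 stand in a row on chromosome 12 (OAS3 at chr12:112938352-112973249 and OAS2 at chr12:112978395-113011723, plus strand). OAS3 was 3003, 12189 and 15183 in the controls and 2891, 4293 and 4884 in UE7T-9 SHC4. OAS2 was 1406, 9294 and 11943 in the controls and 1433, 2192 and 2929.8 in UE7T-9 SHC4. In both, Cont 1 and SHC4 1 lay close together at the low end, and Cont 2 and Cont 3 lay above all other libraries. The log2 fold change was -1.07 (SE 0.52, limma adjusted p = 0.392) for OAS3 and -1.36 (SE 0.68, limma adjusted p = 0.404) for OAS2, and without Cont 1 it was -1.79 and -2.33 (limma adjusted p = 0.00364 and 0.00258). OAS1 ranged from 358 to 4191. OASL, which lacks the enzyme activity and acts through RIG-I, ranged from 104 to 1518. Without Cont 1 its log2 fold change was -3.19 (SE 0.24, limma adjusted p = 0.000639), and USP18 had the same adjusted p at a log2 fold change of -2.56. No other of the 38 genes had a smaller one.

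DDX58 (RIG-I) and IFIH1 (MDA5) are the helicases that detect viral RNA in the cytoplasm, and DDX60 is a related helicase. DDX58 ranged from 572 to 4319.5, IFIH1 from 639 to 2929.5 and DDX60 from 661 to 2822. Their log2 fold changes were -1.22 (SE 0.63, limma adjusted p = 0.414), -0.65 (SE 0.54, limma adjusted p = 0.623) and -0.81 (SE 0.46, limma adjusted p = 0.456). In all 3, Cont 1 and SHC4 1 were the 2 lowest libraries, and limma called all 3 sensors lower without Cont 1. IRF7, the factor that amplifies interferon production, ranged from 468 to 1581 with a log2 fold change of -0.98 (SE 0.41, limma adjusted p = 0.321), and -1.56 (SE 0.16, limma adjusted p = 0.00167) without Cont 1. IRF9, the DNA-binding partner of STAT2, was low at 64.3, 80.1 and 125 in the controls and 80.9, 80.7 and 58.2 in UE7T-9 SHC4. Its log2 fold change was -0.25 (SE 0.29, limma adjusted p = 0.743). Of the exon bases of IRF9, 48.4% are shared with AL136295.5 on the same strand, where a count that leaves out ambiguous reads would miss them, so the level of IRF9 is uncertain.

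RSAD2 (viperin), an enzyme that makes a chain-terminating nucleotide, and CMPK2, a nucleotide kinase, lie head to head on chromosome 2 (CMPK2 at chr2:6840570-6866635, minus strand, and RSAD2 at chr2:6865806-6898239, plus strand). They had the largest spread within groups of all 38 genes. RSAD2 was 64.3, 1881 and 5249 in Cont 1, 2 and 3 and 58, 218 and 245 in SHC4 1, 2 and 3. CMPK2 was 62.4, 742 and 1775 in the controls and 63.3, 156 and 146 in UE7T-9 SHC4. Cont 3 was 81.6 times Cont 1 for RSAD2 and 28.4 times for CMPK2, and these were the 2 genes in which Cont 3 stood furthest above Cont 2 in ratio. In UE7T-9 SHC4, SHC4 1 was the lowest library for both, with a highest to lowest ratio of 4.22 for RSAD2. For RSAD2 limma gave a log2 fold change of -2.56 (SE 1.34, limma adjusted p = 0.421), and -4.42 (SE 0.59, limma adjusted p = 0.00501) without Cont 1. That of CMPK2 was -1.94 (SE 1.00, limma adjusted p = 0.414), and -3.33 (SE 0.43, limma adjusted p = 0.00427) without Cont 1.

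EPSTI1 (chr13:42886388-42992271, minus strand), named for its induction in contact between epithelium and stroma, was 539, 1741 and 2145 in the controls and 536, 607 and 737 in UE7T-9 SHC4. Its 2 lowest libraries were Cont 1 and SHC4 1. DESeq2 called it lower at a log2 fold change of -1.24 (SE 0.40, DESeq2 adjusted p = 0.0462), while limma gave -1.02 (SE 0.43, limma adjusted p = 0.325). PARP14 (chr3:122680618-122730840, plus strand), an ADP-ribosyltransferase, was 2465, 6358 and 7561 in the controls and 2239, 2909 and 3426 in UE7T-9 SHC4, with a log2 fold change of -0.80 (SE 0.37, limma adjusted p = 0.361), and -1.30 (SE 0.19, limma adjusted p = 0.00634) without Cont 1. TRIM22 (chr11:5689689-5737089, plus strand), a ubiquitin ligase with antiviral activity, was among the most abundant of the list and had a small spread, at 5204, 10448 and 10529.7 in the controls and 5218, 7341 and 8163 in UE7T-9 SHC4. The highest control was 2.02 times Cont 1, and the log2 fold change was -0.29 (SE 0.29, limma adjusted p = 0.684), or -0.63 (SE 0.20, limma adjusted p = 0.0981) without Cont 1.

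The other effectors were SAMD9 (1238 to 4165 over the 6 libraries) and its neighbour SAMD9L (1506 to 6908), which restrict poxviruses and protein synthesis, PARP9 (1275 to 5355) and XAF1 (410.4 to 1860.2), an antagonist of the apoptosis inhibitor XIAP. Each had Cont 2 and Cont 3 as the 2 highest libraries, and limma called each lower without Cont 1. XAF1 shares 38.3% of its exon bases with PRAL on the opposite strand, and the strand setting of the counting is not given in the sources used here. ISG20, an exonuclease that degrades RNA, did not have the pattern of the list. It was 129, 233 and 169 in the controls and 178, 149.8 and 189.8 in UE7T-9 SHC4, with a log2 fold change of -0.00030 and an adjusted p of 0.9996 from limma. Its highest library was Cont 2, and Cont 3 lay between the UE7T-9 SHC4 libraries. ISG20, IFITM2 and IRF9, like HERC5, OASL and IFI27 above, were singled out after their values were seen.

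Levels of different genes were compared per length, as reads per kilobase of merged exon scaled to the depth of the library (RPKM, exons of GENCODE 29). By the median of the 6 libraries, IFITM3 was the most abundant (246 to 548 over the libraries), followed by IFI6 (88.8 to 1834), IFITM2 (71.1 to 115), ISG15 (43.8 to 632) and IFITM1 (46.2 to 193). The ranges of these neighbours in the order overlapped. The lowest were ISG20 (0.749 to 1.48), IRF9 (0.659 to 1.63) and MX2 (0.192 to 6.23). Over the 38 genes the median per-length level was 5.5, 28.3 and 45 in Cont 1, 2 and 3, and 6.37, 8.0 and 10.5 in SHC4 1, 2 and 3. Over all genes tested it was between 1.25 and 1.48, so the list lay above the typical gene in every library. The order itself changed with the library, as IFI6 was above IFITM3 in Cont 2 and Cont 3 and below it in the other 4.

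The genes around the list were examined as 68 further genes of the interferon pathway, of which 60 were listed in the files and 59 passed the minimum mean. Limma called 0 of the 59 with all libraries, and 15 had an unadjusted p below 0.05 (6.96% of all genes lower and 7.47% higher). All of these 15 were lower except ICAM1, at a log2 fold change of 0.53 (SE 0.19, limma adjusted p = 0.254). For edgeR 0 of 51 were called and 14 had an unadjusted p below 0.05. The share over all genes was not counted there, so the 14 cannot be read as a result about the pathway genes. DESeq2 called 2 lower, CD274 and GBP5 (1.15% of all genes), and none higher. Without Cont 1, limma called 7 of the 59 lower (1.47% of all genes) and none higher, namely CD274, CXCL10, DTX3L, GBP1, GBP5, PLSCR1 and TLR3. The ligands were close to absent: IFNB1 did not exceed 3.53 and IFNA1 did not exceed 3.49 in any library, which is about the value of 3 reads, and IFNG, IFNK, IFNW1, IFNA2 and the interferon lambda genes IFNL1, IFNL2 and IFNL3 were not listed. IFNE, a further type I interferon, was 17.5, 14.1 and 16.7 in the controls and 19.3, 19.1 and 17.5 in UE7T-9 SHC4. Its log2 fold change was 0.20 (SE 0.36, limma adjusted p = 0.84), and at so few reads the order of the libraries cannot be read.

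Among the receptors, IFNAR1 was 2430.1, 2457 and 2354 in the controls and 2118, 2423 and 2642 in UE7T-9 SHC4, with a log2 fold change of -0.02 (SE 0.12, limma adjusted p = 0.964). IFNAR1 thus differed little between libraries. IFNGR1 ranged from 909 to 1298 and IFNGR2 from 719 to 1054. IFNAR2 (15.6 to 27.9) and IL10RB (8.77 to 19.7) were low, but 44.2% and 38.1% of their exon bases are shared with AP000295.1 on the same strand, so these levels are uncertain. IFNLR1, the chain that binds interferon lambda, was 63.4, 134 and 82.6 in the controls and 35.2, 49.9 and 59.4 in UE7T-9 SHC4. All 3 UE7T-9 SHC4 libraries were below all 3 controls, at a log2 fold change of -0.90 (SE 0.34, limma adjusted p = 0.278).

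STAT2 was 5763, 10396 and 11283 in the controls and 7097, 9271 and 9654 in UE7T-9 SHC4. It had Cont 1 as the lowest library and Cont 2 and Cont 3 as the highest, as in most of the list, with a log2 fold change of -0.03 (SE 0.26, limma adjusted p = 0.971). JAK1, TYK2 and STAT3 ranged from 4651 to 6116, 1970.3 to 2295 and 4586 to 5408. IRF1, the factor induced above all by interferon gamma, was 491, 483 and 482 in the controls and 469, 389 and 406 in UE7T-9 SHC4, so its controls lay within 1.02 times of each other. UE7T-9 SHC4 was below the controls in every library for IRF1, at a log2 fold change of -0.21 (SE 0.13, limma adjusted p = 0.506). It was above them in every library for IRF3, which switches on interferon genes after viral sensing, at 909, 868 and 981 in the controls and 1087, 1092 and 985 in UE7T-9 SHC4 and a log2 fold change of 0.20 (SE 0.12, limma adjusted p = 0.474).

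CD274, the immune checkpoint ligand PD-L1, was 149, 316 and 364 in the controls and 95.8, 79.9 and 89.7 in UE7T-9 SHC4. All UE7T-9 SHC4 libraries lay below all controls, Cont 1 included, and DESeq2 called it lower (log2 fold change -1.64, SE 0.34, DESeq2 adjusted p = 0.000238). For CD274 limma gave -1.54 (SE 0.31, limma adjusted p = 0.116), and -1.93 (SE 0.19, limma adjusted p = 0.00167) without Cont 1. GBP5, a guanylate-binding protein, was 14.6, 55.3 and 148 in the controls and 7.91, 15 and 16.3 in UE7T-9 SHC4. DESeq2 placed GBP5 at -2.48 on the log2 scale (SE 0.71, DESeq2 adjusted p = 0.0194). With all libraries limma gave -1.91 (SE 0.72, limma adjusted p = 0.283) and edgeR an adjusted p of 0.199, so neither called it. The chemokine CXCL10 had 5.85, 10.6 and 29.5 normalized counts in the controls and no reads in UE7T-9 SHC4, where 3 reads correspond to 2.50 to 3.49. CGAS, the sensor of cytoplasmic DNA, was 380.2, 593 and 535 in the controls and 301, 306 and 378 in UE7T-9 SHC4. APOBEC3G, an editing enzyme that restricts retroviruses, was 384, 519 and 572 in the controls and 339, 334 and 345 in UE7T-9 SHC4. PML, the scaffold of nuclear bodies, was 2832, 3142 and 3843 in the controls and 2604, 2606 and 2515 in UE7T-9 SHC4. ZC3HAV1 (ZAP), which binds viral RNA rich in CpG, was 2380.4, 2824 and 2782 in the controls and 1956, 2167 and 2259 in UE7T-9 SHC4. CGAS, APOBEC3G, PML and ZC3HAV1 also had all UE7T-9 SHC4 libraries below all controls. Their log2 fold changes were -0.59, -0.51, -0.33 and -0.32 (limma adjusted p = 0.223, 0.227, 0.318 and 0.296). In all, 8 of the 60 listed genes were below and 1 above in every library, against 10.2% and 9.13% of all genes tested.

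**Figure D4:**
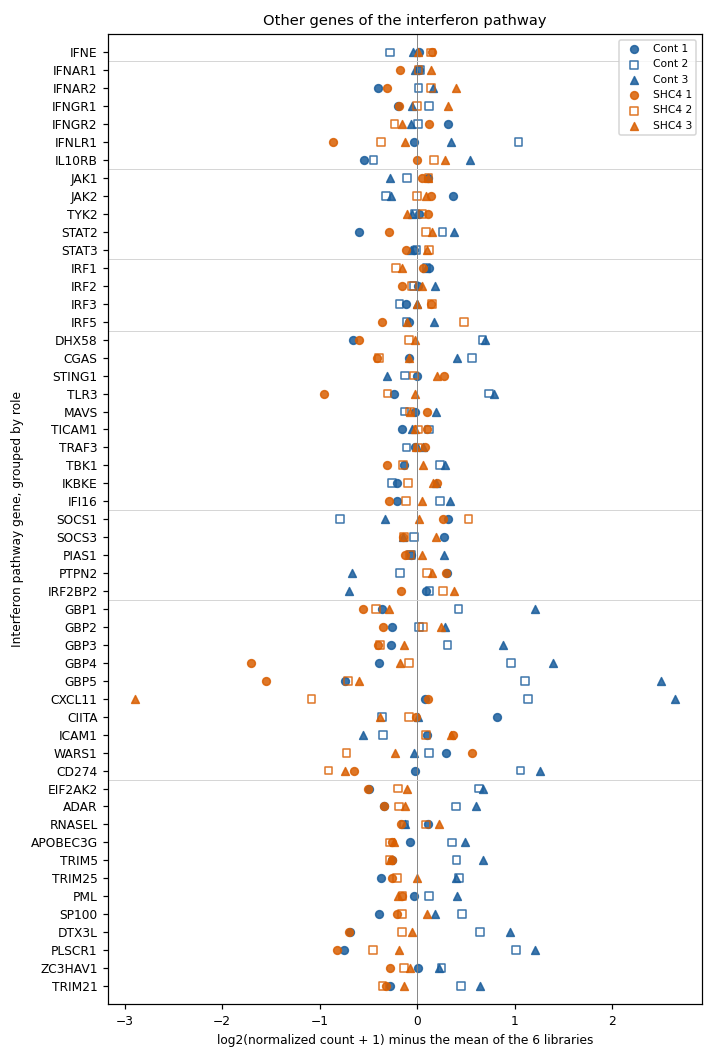
The 53 further interferon pathway genes whose mean reached 10 normalized counts, grouped by role, with 1 point per library and the axis of the plot of the 38 genes. IFNAR1, JAK1 and TYK2 keep their 6 points close together, while TLR3, GBP5, PLSCR1 and DTX3L have Cont 2 and Cont 3 to the right of the other libraries.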

How the data were processed

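The 6 libraries, 3 for UE7T-9 SHC4 and 3 for UE7T-9 Cont, were prepared with the NEBNext Ultra RNA kit and sequenced by Novogene. The values deposited by the authors are a signal, in which the reads of a gene were divided by the size factor of the library, called a normalized count here. The submitters' processing notes name HISAT2 2.0.5, featureCounts 1.5.0-p3 and DESeq2. The genome build, annotation and strand setting are not given in the sources used here. All values came out as whole reads (100% within 0.01 reads) once divided by the step between low values, which gave back the reads. The 28181 Ensembl identifiers were named from GENCODE 29 on GRCh38, and all were found there.

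The comparison used limma 3.58.1 with an intensity trend in R 4.3.3, run on log2(normalized count + 1). It covered the 23040 genes whose mean reached 1, and p-values were adjusted by Benjamini-Hochberg over all of them. On this scale the change of genes with few reads is understated. DESeq2 1.42.0 and edgeR 4.0.16 were run on the recovered reads as alternatives, beside other scalings, filters, a pseudocount of 0.1, the replicate block and each library left out. With 3 libraries against 3, an exact permutation test of 1 gene cannot go below p = 0.1. The 38 genes, the pathway and marker lists and the thresholds were chosen with earlier results of these data known. Every library is given for genes called by limma, edgeR or DESeq2, genes without overlap between groups, the 10 genes with the highest mean and the 5 with the largest spread within groups, and the other genes by range, except where a sentence says otherwise. Pathway genes were named if called, if without overlap between groups, or as interferon ligands, receptors, STAT2 or IRF1, and 1 further pathway gene and 1 marker of the original lists are not reported here. JAK1, TYK2, STAT3, ICAM1 and the genes called only without Cont 1 were added after their values were seen. Stretches of 50 bases shared with other genes were counted on both strands of the GENCODE 29 transcripts.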

Additional observations from a re-analysis of the deposited data

How the results depend on the processing

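With all 6 libraries kept, the interferon-stimulated genes called lower were 0 in every limma fit (library size scaling, TMM scaling, no filter, a mean of at least 10, pseudocount 0.1, no fold change threshold) and in edgeR, and 2 in DESeq2; 0 were called higher. Leaving out each library gave 0 to 33 called lower and 0 to 35 lower and 0 to 1 higher without overlap between groups, the upper counts of those lower all without Cont 1. Their median log2 fold change stayed below 0, at -2.10 to -0.64 in these fits. Over all genes, 12 were called higher and 2 lower, and the counts were 22 and 6 under library size scaling, 20 and 4 under TMM scaling, 170 and 185 with DESeq2, 31 and 9 with no filter, and 1 to 367 and 0 to 339 with a library left out. edgeR and pseudocount 0.1 each called 1 gene lower. Library size scaling shifted the median of all genes to -0.10. ISG20 changed sign under TMM scaling (0.0105) and ran from -0.21 to 0.22 with a library left out, and IRF9 from -0.46 to 0.01; no other of the 38 genes changed sign.

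After centring on the group means, libraries of the same number had correlations of 0.148, 0.013 and -0.00696 over all genes tested. Those of different number lay between -0.108 and 0.0992, and the numbers were not taken to pair the libraries. In the 38 genes Cont 1 was the lowest control in 37 and SHC4 1 the lowest of its group in 30. With the replicate block limma called 25 genes higher and 14 lower, and 0 of the 38 (smallest adjusted p = 0.0578). In that fit 35 of the 38 had an unadjusted p below 0.05, 34 of them lower, against 9 without the block. The share over all genes was not counted, so these counts cannot be read as a result about the 38 genes. Whether the libraries are paired is not stated. Values near 3 reads, such as those of IFNB1 and IFNA1, cannot show a difference at this depth.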
